A study of Mus musculus with 10 samples.

Results

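Inner hair cells (IHCs) were compared with converted hair cells (cHCs), which are supporting cells turned toward a hair cell fate by an Atoh1 transgene, in 4 of the 10 bulk RNA-seq libraries of a mouse cochlea study. Membership was set by the library name that each count file carried, which gave 2 IHC libraries, named here P74 and P75 by the age of the mouse, and the cHC libraries 13 and 16, and all 34590 genes listed in the files were considered. The IHCs came from Pval-Cre+ mice at postnatal day 74 (P74) and P75 that carried a red reporter behind a removable stop (Rosa26-CAG-loxP-stop-loxP-tdTomato+), and no tamoxifen is named for them. The cHCs came from Fgfr3iCreER+ mice at P33 that carried Atoh1-HA+, the green reporter alpha9 AChR-EGFP+ and the same tdTomato reporter, and that had received tamoxifen in the second postnatal week. All 4 libraries therefore carried the tdTomato reporter, while the Atoh1-HA and EGFP transgenes and tamoxifen were on the cHC side alone. The 6 remaining libraries were duplicates of supporting cells (SCs), of outer hair cells (OHCs) at P7 and of OHCs at about P22.

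Several features of the design limit the comparison. Cell type, genotype, age, tamoxifen and the numbering series of the libraries all changed together between IHCs and cHCs and cannot be told apart. The IHCs were picked by hand for tdTomato driven by a parvalbumin Cre line, which per the study's methods labelled OHCs weakly as well. The cHCs were picked by hand for tdTomato together with EGFP under the control of the Chrna9 gene, so that the level of Chrna9 is tied to how the cells were chosen. Atoh1 counts in cHCs can include reads from the Atoh1-HA transgene. Fgfr3iCreER acts in Deiters and pillar cells, so that the cHCs arose from the outer part of the organ of Corti. Each library was a pool of cells, the study lists more cells on average for the IHC pools than for the cHC pools, and the RNA was amplified before sequencing. In such pools, fewer cells of a type and less RNA per cell cannot be told apart. The study calls the libraries of each cell type biological duplicates. The IHC libraries differ in age, P74 and P75, so they came from different mice. The cHC libraries share an age, and their labels name no animals, but they differ in Xist and Ddx3y, as given below. The labels do not give the number of mice behind each pool, and the p-values measure the spread between these libraries.

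The mammalian organ of Corti holds a single row of IHCs, which pass sound signals to the auditory nerve, and rows of OHCs, which amplify the vibration by changing length. IHCs release glutamate at ribbon synapses, where vesicles loaded by the transporter VGLUT3 fuse through the calcium sensor otoferlin, and their fast potassium currents shorten the receptor potential. Atoh1 is the basic helix-loop-helix transcription factor that starts hair cell differentiation in the embryo and is normally silent in the mature cochlea, while the motor protein prestin marks OHCs.

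Counts on genes were 27301979 and 26513178 in the P74 and P75 IHC libraries and 19621193 and 33162033 in cHC libraries 13 and 16, and the 10 libraries of the series ranged from 15016129 to 40518766. Levels are given as CPM, the counts divided by a library size scaled by the trimmed mean of M-values (TMM), always with the P74 library before the P75 library and library 13 before 16. Across genes, the Spearman correlation of counts was 0.815 for the IHC pair, 0.803 for the cHC pair and 0.701 to 0.717 for the 4 cross pairs, a description over genes that are not independent. 4 of the 10 count files, both cHC files among them, were attached to a record that named another library, and the name on the file was followed. With the files assigned to those records instead, 0 genes differed between IHCs and cHCs by the edgeR test used below, with 1026 at an unadjusted p under 0.05. Xist was at 1.18 and 1.03 CPM in IHCs and 1531 and 2.87 CPM in cHCs, and the Y-linked Ddx3y at 52.3 and 29.6 CPM and 0.0425 and 25.1 CPM. Library cHC 13 thus stood apart from the other 3 libraries in both. Neither gene passed the test between the groups.

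The identity of the cells was checked by markers. The hair cell genes Myo6, which encodes an unconventional myosin, Myo7a and Pou4f3 were present in all 4 libraries. Myo6 was at 2604 and 2426 CPM in IHCs and 2775 and 2861 CPM in cHCs, Myo7a at 621 and 841 CPM and 405 and 504 CPM, and Pou4f3 at 404 and 420.4 CPM and 235 and 329.7 CPM, with adjusted p values of 0.891, 0.553 and 0.646. The IHC markers Slc17a8, Otof and Calb2 were all higher in the libraries labelled IHC, as given below with their values. For the supporting cell markers, Sox2 was at 14.6 and 8.80 CPM in IHCs and 30.9 and 6.93 CPM in cHCs, beside 77.3 CPM on average in SCs, and Sox9 at 96 and 64.5 CPM and 126 and 16 CPM, beside 322 CPM. Other supporting cell markers went in opposite directions without passing the test. Fgfr3 was higher in both cHC libraries and Gjb2 in both IHC libraries, with values given below.

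Of 16891 genes tested across all libraries by edgeR's quasi-likelihood test, 156 (0.924%) differed between IHCs and cHCs at a Benjamini-Hochberg adjusted p under 0.05, called below. Of these, 71 (0.420% of the genes tested) were higher in IHCs and 85 (0.503%) were lower in IHCs. The median of the absolute log2 fold change was 4.52 among genes higher in IHCs, with a range from 1.78 to 13.84, and 8.89 among those lower in IHCs, with a range from 2.43 to 18.11. In all 156 genes both IHC libraries lay on the same side of both cHC libraries. Over all genes tested, both IHC libraries lay above both cHC libraries in 3668 (21.7%) and below both in 4172 (24.7%), and the median log2 fold change, IHC minus cHC, was -0.05. The count depended on each library. It was 84 without cHC 13, 46 without cHC 16, 16 without IHC P74 and 34 without IHC P75, of which 69, 39, 15 and 30 were among the 156. In the plot of fold change against mean level, the called genes lie at the outer edges, and 24 of the 85 genes lower in IHCs form the lower diagonal of genes with no count in either IHC library.

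**Figure D1:**
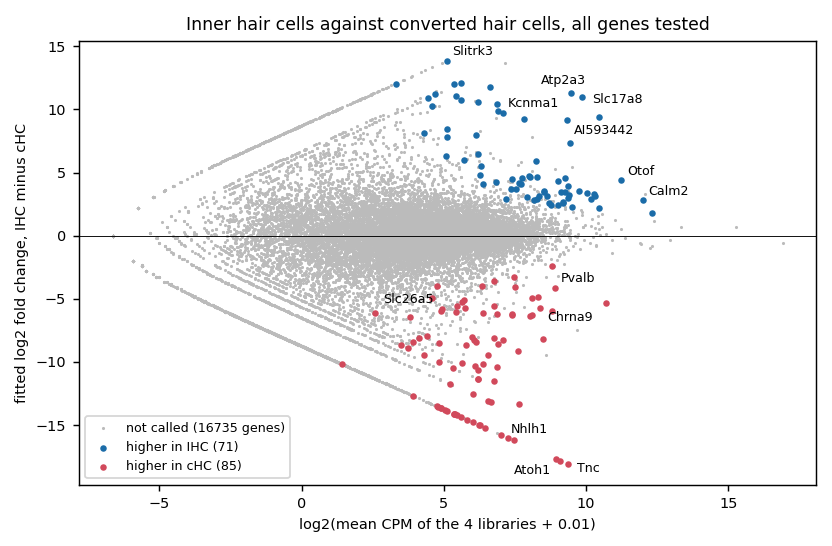
Fitted log2 fold change, IHC minus cHC (y axis), against the log2 mean CPM plus 0.01 of the 2 IHC and 2 cHC libraries (x axis) for 16891 genes. Blue points are the 71 genes higher in IHCs, red points the 85 higher in cHCs and grey points the 16735 not called. The diagonal lines of points are genes with no or few counts on one side, whose fitted fold change is set by the level on the other side.

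12 genes were called by all 3 tools used (edgeR, DESeq2 and limma-voom) and in each of the 4 fits that left out 1 library. 8 were higher in IHCs and 4 were higher in cHCs. Each of the other 144 called genes lost its call in at least 1 of these fits. Of the 59 called genes named in the text, 22 were not called without cHC 13, 35 without cHC 16, 45 without IHC P74 and 36 without IHC P75, while the direction stayed as it was for all 59. Adjusted p values below are those with all libraries.

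Otof encodes otoferlin, the calcium sensor of exocytosis at the ribbon synapse, and lies in mm9 at chr5:30669351-30764305 on the minus strand. It was at 5009.9 and 4216 CPM in IHCs and 279 and 161 CPM in cHCs. Every IHC library was above every cHC library, by 21-fold in the fit (log2 fold change 4.39 ± 0.45 SE, adjusted p = 0.00384). SCs had 0.630 CPM on average, OHCs at P7 1090.3 CPM and OHCs at P22 414 CPM.

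Kcnma1, the pore-forming subunit of the large-conductance calcium-activated potassium (BK) channel that carries the fast potassium current of mature IHCs, lies at chr14:24117983-24622526 on the minus strand. It was at 187 and 350.5 CPM in IHCs and 0.255 and 0.356 CPM in cHCs. The cHC libraries were near the limit of detection, and the difference was 858-fold (log2 fold change 9.74 ± 1.10 SE, adjusted p = 0.00594). OHCs at P7 and P22 had 65.7 and 320.2 CPM on average.

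AI593442, a gene known by its sequence tag, gave the smallest p of all genes tested. It was at 1305 and 1268 CPM in IHCs and 2.85 and 1.63 CPM in cHCs, and the log2 fold change was 9.17 ± 0.62 SE (adjusted p = 0.000239). In OHCs at P7 it was at 3263 CPM on average and in SCs at 1.94 CPM, close to the level in cHCs.

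Atp2a3, which encodes the calcium pump SERCA3 of the endoplasmic reticulum, was at 1289 and 1548 CPM in IHCs and 1.11 and 0.0508 CPM in cHCs. Chst2, a sulfotransferase acting on carbohydrates, was at 2882 and 2659 CPM and 6.04 and 2.06 CPM. Homer2, a postsynaptic-density scaffold that binds glutamate receptors and calcium channels, was at 948 and 1000.4 CPM and 59.4 and 37.2 CPM. For these 3 genes the groups did not overlap, and the log2 fold changes were 11.31 ± 1.43, 9.42 ± 1.07 and 4.33 ± 0.46 (SE). The remaining genes higher in IHCs, Crip3, which encodes a LIM domain protein, and A530016L24Rik, had 0 and 0 and 0 and 1 counts in the cHC libraries. Crip3 was at 23.5 and 15.9 CPM in IHCs, at least 193-fold above a floor of 3 counts per cHC library. A530016L24Rik was at 64.2 and 98.2 CPM in IHCs, a ratio of 5094 (95% exact counting interval 914 to 201232).

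On the cHC side, Nhlh1 encodes a basic helix-loop-helix transcription factor of the developing nervous system and lies at chr1:173982423-173987704 on the minus strand. It had 0 counts in both IHC libraries and was at 149 and 371 CPM in cHCs. That put cHCs at least 2544-fold above the floor (adjusted p = 0.00594). OHCs at P7 had 113 CPM on average and OHCs at P22 0.126 CPM.

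Igll1, a component of the surrogate light chain of immature B cells, also had 0 counts in both IHC libraries and was at 237 and 472 CPM in cHCs, at least 3471-fold higher. Its mean was 0.313 CPM in OHCs at P7 and 0.452 CPM in SCs, so that cHCs stood above all other cell types of the series. Heg1, a transmembrane receptor known from heart and vessel development, had 1 and 1 counts in IHC libraries and 304 and 486 CPM in cHCs, a ratio of 12285 with a wide 95% exact counting interval of 3400.4 to 101443. D0H4S114, an older symbol of the neuronal regeneration related gene Nrep, was at 1.75 and 3.16 CPM in IHCs and 560.2 and 883 CPM in cHCs. The difference for D0H4S114 was 293-fold (log2 fold change -8.20 ± 0.77 SE, adjusted p = 0.00321).

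**Figure D2:**
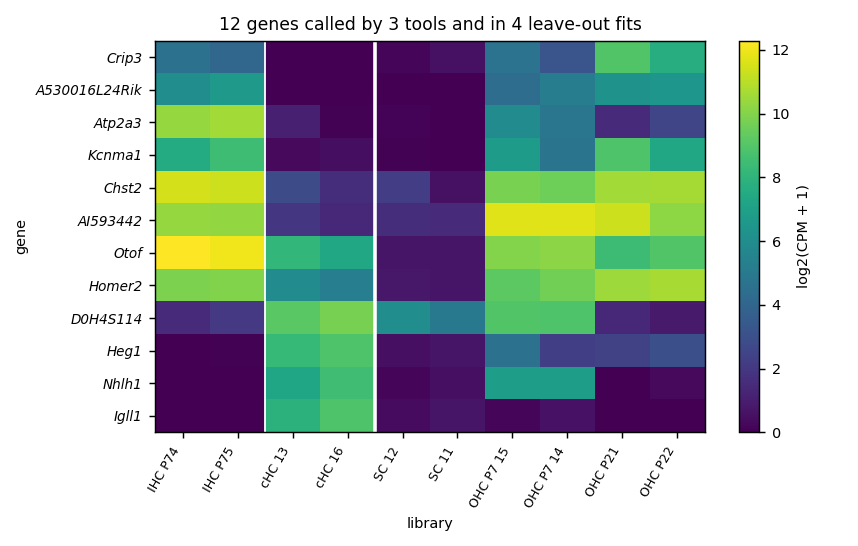
Level of the 12 genes called by all 3 tools and in all 4 leave-out fits, as log2(CPM + 1) (colour) for each gene (rows) in each of the 10 libraries (columns). The first 2 columns are IHCs and the next 2 cHCs, and the 8 upper genes are brighter in IHCs while the 4 lower genes are brighter in cHCs.

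The promoter sequences of 4 called genes are shown because Atoh1, the factor that the cHCs were made to express, binds the E-box, a site with the letters CANNTG. Each window runs from 250 bases before to 50 bases after a RefSeq transcription start in the assembly GRCm38.p6, which is another build than the mm9 of the counts, and the letters CANNTG are in capitals. Nhlh1 and Chrna9 were higher in cHCs, and Kcnma1 and Slc17a8 were higher in IHCs.
Nhlh1, chr1:172057547-172057846, minus strand: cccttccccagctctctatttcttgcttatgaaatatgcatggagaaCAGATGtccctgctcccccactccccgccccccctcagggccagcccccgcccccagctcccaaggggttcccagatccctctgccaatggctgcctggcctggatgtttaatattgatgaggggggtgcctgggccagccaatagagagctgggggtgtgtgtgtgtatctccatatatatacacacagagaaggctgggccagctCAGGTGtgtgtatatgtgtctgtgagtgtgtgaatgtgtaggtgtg
Chrna9, chr5:65966874-65967173, plus strand: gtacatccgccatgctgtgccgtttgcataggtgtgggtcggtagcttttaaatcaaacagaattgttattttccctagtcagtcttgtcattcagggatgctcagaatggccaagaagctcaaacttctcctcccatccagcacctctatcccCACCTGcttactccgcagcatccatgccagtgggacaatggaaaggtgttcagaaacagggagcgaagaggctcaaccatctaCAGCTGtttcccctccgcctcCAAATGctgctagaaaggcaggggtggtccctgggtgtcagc
Kcnma1, chr14:24004156-24004455, minus strand: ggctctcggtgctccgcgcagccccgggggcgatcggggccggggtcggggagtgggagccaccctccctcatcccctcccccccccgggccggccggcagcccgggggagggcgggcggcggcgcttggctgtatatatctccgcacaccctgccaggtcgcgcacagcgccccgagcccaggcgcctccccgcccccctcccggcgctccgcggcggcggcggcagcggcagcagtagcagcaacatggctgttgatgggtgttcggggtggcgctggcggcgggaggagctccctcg
Slc17a8, chr10:89621200-89621499, minus strand: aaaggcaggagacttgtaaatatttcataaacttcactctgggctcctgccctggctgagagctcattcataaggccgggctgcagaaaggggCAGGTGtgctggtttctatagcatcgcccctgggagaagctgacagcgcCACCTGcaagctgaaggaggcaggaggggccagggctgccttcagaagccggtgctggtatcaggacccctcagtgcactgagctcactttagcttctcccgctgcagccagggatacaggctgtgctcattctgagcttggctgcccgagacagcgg

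The windows shown of Nhlh1, Chrna9, Kcnma1 and Slc17a8 held 2, 3, 0 and 2 matches to CANNTG, which is its own reverse complement, so that each match covers both strands. Another window of Slc17a8, at chr10:89599766-89600065, is not shown and held 1 match. CANNTG occurred in 72.3% of all 32851 promoter windows, in 64.9% of the 13261 windows of genes tested, in 65.0% of the 60 windows of genes higher in IHCs and in 72.8% of the 81 windows of genes lower in IHCs. The core form CAGCTG, which is contained in CANNTG, occurred once in the Chrna9 window and in none of the other 3 windows shown. It was found in 16.3% of all windows, in 15% of those of genes higher in IHCs (9 windows) and in 18.5% of those of genes lower in IHCs (15 windows). Windows were matched for 48 of the 71 genes higher in IHCs and 58 of the 85 lower in IHCs. With so many called genes unmatched, a comparison of these sets is void, and the shares describe only the windows that were matched.

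Of the afferent synapse genes on the lists, 2 were called on the ribbon synapse list and 0 on the vesicle fusion list. The glutamate transporter and the calcium sensor of release were both higher in IHCs, and the ribbon and active zone components around them were not called. Of the 15 genes on the list of ribbon synapse and active zone genes, all tested, 2 were higher in IHCs and 0 were lower. Over all genes tested these shares were 0.420% and 0.503%. The median log2 fold change of the list was 1.01, beside -0.05 over all genes tested. Both IHC libraries lay above both cHC libraries in 6 of the 15 and below in 2, beside 21.7% and 24.7% of all genes tested. DESeq2 and limma-voom each called 4 higher and 0 lower, and 4 had an unadjusted p under 0.05.

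Slc17a8, which encodes the vesicular glutamate transporter VGLUT3 and lies in mm9 at chr10:89036765-89083998 on the minus strand, was at 1907 and 1763 CPM in IHCs and 1.87 and 0 CPM in cHCs. IHC libraries were high and alike, and 1 cHC library had no count. The log2 fold change was 10.97 ± 1.74 SE with an adjusted p of 0.0149, and the call was lost when either IHC library was left out. OHCs had 50.9 CPM on average at P7 and 44 CPM at P22. Its paralogs Slc17a6 (VGLUT2) and Slc17a7 (VGLUT1), which serve neurons, were at 0.977 and 5.46 CPM and 35.8 and 2.92 CPM in IHCs and at 0.128 and 0 CPM and 0.0851 and 0 CPM in cHCs, with adjusted p values of 0.46 and 0.304.

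Ctbp2, whose RIBEYE form builds the ribbon, was at 38.8 and 103 CPM in IHCs and 38.8 and 31.4 CPM in cHCs. The active zone scaffolds Bsn (bassoon) and Pclo (piccolo) were at 23.7 and 9.86 CPM and 244 and 139.7 CPM in IHCs and at 28.7 and 83.6 CPM and 182 and 409.8 CPM in cHCs. None of the 3 passed the test, and the groups overlapped for Pclo. The calcium channel Cacna1d and the calcium-binding protein Cabp2, both named after their values were seen, were at 374 and 271 CPM and 469 and 408 CPM in IHCs and 228 and 183 CPM and 26.2 and 14.9 CPM in cHCs. Cabp2 was far higher in both IHC libraries but did not pass the test (adjusted p = 0.325), and the Cacna1d levels were closer together (adjusted p = 0.871).

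Of 20 genes of vesicle fusion and synaptic vesicles, 18 were tested, 0 were called in either direction, and 3 had an unadjusted p under 0.05. DESeq2 and limma-voom each called 2 higher in IHCs and 0 lower. The median log2 fold change was 0.69, and without IHC P75 it was -0.06. The SNARE protein Snap25 was at 219 and 308 CPM in IHCs and 125 and 361 CPM in cHCs, so that the groups overlapped, and Vamp2, another SNARE protein, was at 229 and 436 CPM and 66.2 and 111 CPM (adjusted p = 0.346). Among genes off the lists, named after their values were seen, 2 genes of vesicle retrieval were called. Dnm1, the neuronal dynamin that severs endocytic vesicles, was at 619.9 and 573 CPM in IHCs and 27.1 and 19.6 CPM in cHCs (log2 fold change 4.67 ± 0.59 SE, adjusted p = 0.00594). Snap91, which encodes the clathrin adaptor AP180, was at 469 and 325 CPM and 19.3 and 26.1 CPM (4.13 ± 0.52 SE, adjusted p = 0.00594). Genes with synaptic roles were also called lower in IHCs. Rab3b, a vesicle GTPase, was at 0.0674 and 0.0344 CPM in IHCs and 54.6 and 239.8 CPM in cHCs. Rph3a, the Rab3 effector rabphilin, was at 0.505 and 0.447 CPM and 81.9 and 173 CPM, and the presynaptic adhesion gene Nrxn3 at 0.741 and 0.619 CPM and 255 and 529 CPM.

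**Figure D3:**
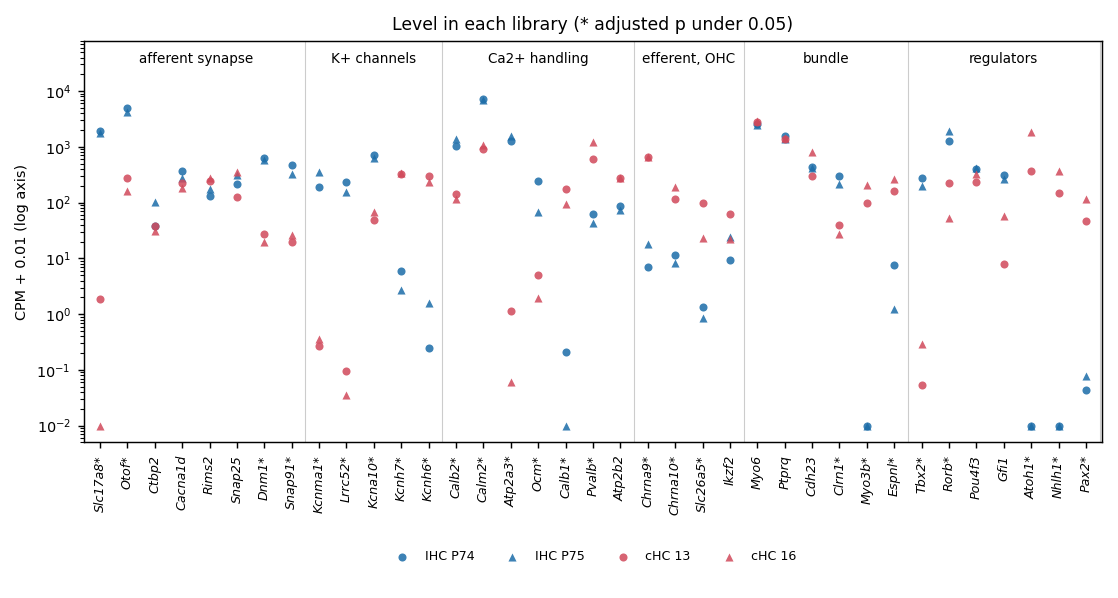
Level in each of the 4 libraries (CPM + 0.01, log axis) for genes grouped by role, with IHC libraries in blue and cHC libraries in red. An asterisk marks genes with an adjusted p under 0.05, and points at the bottom are libraries with no count. Slc17a8, Kcnma1, Lrrc52 and Atp2a3 are near or at the bottom in cHCs, and Myo3b, Atoh1 and Nhlh1 are at the bottom in IHCs.

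Potassium channels differed in both directions. The BK channel and its partner subunit were high in IHCs and close to absent in cHCs, while 2 channels of the ether-a-go-go family were higher in cHCs. Of 19 potassium channel genes of hair cells, 17 were tested, with a median log2 fold change of 0.48. Of these 17, 3 were higher in IHCs and 1 was lower, beside 0.420% and 0.503% of all genes tested. DESeq2 and limma-voom each called 3 higher and 3 lower. The median was 1.93 by limma-voom, 1.40 without cHC 16, 0.89 without IHC P75 and 0.25 without cHC 13.

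Lrrc52, an auxiliary subunit that shifts the voltage range of BK-type channels, was at 232 and 158 CPM in IHCs and 0.0851 and 0.0254 CPM in cHCs. The cHC libraries held only 2 and 1 counts, a ratio of 4089 (95% exact counting interval 1399 to 19832, adjusted p = 0.0149), though the call was lost in each of the 4 leave-out fits. OHCs at P22 had 149 CPM on average and OHCs at P7 0.0336 CPM. Kcna10, a voltage-gated channel, was at 727 and 642 CPM in IHCs and 49.1 and 67 CPM in cHCs, a difference of 11.8-fold (log2 fold change 3.56 ± 0.51 SE, adjusted p = 0.00922). The BK subunits Kcnmb2 and Kcnmb4 were at 1.01 and 0.0344 CPM and 0.909 and 2.34 CPM in IHCs and 30.3 and 60.3 CPM and 0.298 and 0.0254 CPM in cHCs. Kcnmb2 stood higher in both cHC libraries without passing the test (adjusted p = 0.138), and Kcnmb1 had no count in any of the 4 libraries.

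Kcnh7, an ether-a-go-go related channel, was at 5.86 and 2.75 CPM in IHCs and 328 and 344 CPM in cHCs. The cHC libraries agreed closely and both lay above both IHC libraries (log2 fold change -6.29 ± 0.99 SE, adjusted p = 0.0149). Its relative Kcnh6, off the lists and named after its values were seen, went the same way, at 0.236 and 1.55 CPM in IHCs and 299.9 and 238 CPM in cHCs (log2 fold change -8.23 ± 1.28 SE, adjusted p = 0.0148). Kcnh2, another relative named after its values were seen, was at 357 and 271 CPM in IHCs and 29.9 and 96.7 CPM in cHCs and did not pass the test (adjusted p = 0.22).

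Among the 26 lists, which were chosen with earlier results of these data known, calcium handling held the largest share of called genes. Over all genes tested, 0.924% were called. Of 15 calcium buffers and pumps, all tested, 5 were higher in IHCs and 2 were lower, and the median log2 fold change of the list was -0.11, beside -0.83 without cHC 16, -0.42 without IHC P74, -0.20 without cHC 13 and -0.01 without IHC P75. DESeq2 called 5 higher and 2 lower, and limma-voom 4 and 2. Related genes went in opposite directions. Calretinin was higher in IHCs and calbindin in cHCs, and oncomodulin was higher in IHCs while its relative parvalbumin was higher in cHCs.

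Calb2 (calretinin) was at 1044 and 1369.9 CPM in IHCs and 141 and 116 CPM in cHCs. Both IHC libraries were above both cHC libraries, by 9.38-fold (log2 fold change 3.23 ± 0.46 SE, adjusted p = 0.00935). Calb1 (calbindin) was at 0.202 and 0 CPM in IHCs and 175 and 94.9 CPM in cHCs. IHC counts of Calb1 were 6 and 0, and the log2 fold change was -10.31 ± 1.77 SE (adjusted p = 0.021). In OHCs at P7, Calb1 stood at 2169.6 CPM on average, against 12.2 CPM at P22.

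Ocm (oncomodulin), a calcium buffer best known from OHCs, was at 239 and 68.6 CPM in IHCs and 4.98 and 1.91 CPM in cHCs. The IHC libraries differed from each other by more than the cHC libraries did in absolute level, and the groups did not overlap (log2 fold change 5.49 ± 0.68 SE, adjusted p = 0.00594 by edgeR and 0.111 by limma-voom). The mean in OHCs at P22 was 8419.6 CPM, far above either group. Pvalb (parvalbumin), whose Cre line labelled the IHCs, was at 62.1 and 42.9 CPM in IHCs and 599 and 1227 CPM in cHCs. It was 17.4-fold lower in IHCs (log2 fold change -4.12 ± 0.58 SE, adjusted p = 0.00922), while OHCs had 216 CPM at P7 and 122 CPM at P22 on average.

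Calm2 encodes calmodulin, the common calcium sensor, and was at 7316 and 6943 CPM in IHCs and 915 and 1094 CPM in cHCs. It was higher in IHCs by 7.10-fold (adjusted p = 0.00594). Calm3, which encodes the same protein and was named after its values were seen, was at 98.4 and 118 CPM and 219.9 and 269.6 CPM (adjusted p = 0.374). Reads shared between related genes could be split or dropped by the counting, which is a source of uncertainty for both. The plasma membrane pump Atp2b2, also named after its values were seen, was at 86.5 and 73.1 CPM in IHCs and 272 and 277 CPM in cHCs without a call (adjusted p = 0.468). Ryr1, a calcium release channel with one of the 10 smallest p values, was at 0.0337 and 0.0687 CPM in IHCs and 21.3 and 24.2 CPM in cHCs. Its ratio, higher in cHCs, was 453 with a 95% exact counting interval of 155 to 2197 (adjusted p = 0.00594).

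The receptors of the efferent synapse, through which the brainstem inhibits hair cells, were higher in cHCs. Their subunit genes Chrna9 and Chrna10 were on a wider list of 9 nicotinic acetylcholine receptor genes, which also held the receptor-associated gene Rapsn. Of these 9, 7 were tested, with a median log2 fold change of -3.46 that does not describe the efferent receptors alone. Of these 7, 0 were higher in IHCs and 2 were lower, beside 0.420% and 0.503% of all genes tested. DESeq2 and limma-voom gave the same counts for the list. Without cHC 16 the median was 0.18. Chrna9, whose regulatory region drove the EGFP used to pick cHCs, lies in mm9 at chr5:66326160-66368565 on the plus strand and was at 7.14 and 17.8 CPM in IHCs and 669.9 and 648 CPM in cHCs. The 2 cHC libraries were alike and lay above both IHC libraries, which describes the choice of cells as well as their state (log2 fold change -5.72 ± 0.75 SE). Chrna10, its partner subunit, was not used to pick cells and was at 11.5 and 8.39 CPM in IHCs and 117 and 189 CPM in cHCs. It was 15.5-fold lower in IHCs (log2 fold change -3.95 ± 0.53 SE, adjusted p = 0.00678), with means of 466 CPM in OHCs at P7 and 1180.3 CPM at P22.

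Genes that mark OHCs gave a mixed picture. Of 11 such genes, all tested, Ocm was higher in IHCs and Slc26a5 and Chrna10 were lower, beside 0.420% and 0.503% of all genes tested. The median log2 fold change of the list was -1.34, and -2.17 without IHC P75. DESeq2 called 1 higher and 4 lower, and limma-voom 0 and 1. Slc26a5, which encodes prestin, was at 1.31 and 0.859 CPM in IHCs and 97.6 and 23.4 CPM in cHCs. Both cHC libraries lay above both IHC libraries, by 55.4-fold in the fit (log2 fold change -5.79 ± 0.71 SE, adjusted p = 0.00594 by edgeR and 0.148 by limma-voom). The cHC levels were nevertheless far under the means of 1078 CPM in OHCs at P7 and 3269 CPM at P22. Ikzf2, which encodes the OHC transcription factor Helios, was at 9.46 and 24.2 CPM in IHCs and 62.8 and 22.6 CPM in cHCs, so that the groups overlapped (adjusted p = 0.527), and OHCs at P22 had 496 CPM.

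Hair bundle genes were called in both directions, and those lower in IHCs included Myo3b, which had no count in either IHC library. Of 20 genes of mechanotransduction and the tip link, all tested, 1 was higher in IHCs and 1 was lower, with a median log2 fold change of 0.09, while DESeq2 called 4 higher and 2 lower and limma-voom 2 and 3. The median reached 0.49 without cHC 16. Of 25 genes of stereocilia actin and bundle shape, all tested, 0 were higher in IHCs and 2 were lower, with a median of 0.14 and 11 at an unadjusted p under 0.05. DESeq2 called 3 of these higher and 3 lower, and limma-voom 1 and 2, and the median was -0.07 without IHC P74. The calls, 2 of 20 and 2 of 25, stand beside 0.924% over all genes tested. A gene that was not called is not thereby shown to be equal.

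Clrn1, which encodes the membrane protein clarin 1 of the hair bundle, was higher in IHCs, at 296 and 218 CPM in IHCs and 39.7 and 27.8 CPM in cHCs (log2 fold change 2.93 ± 0.51 SE, adjusted p = 0.0221).

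Of the transduction channel genes, Tmc1, the mature pore-forming subunit, was at 249 and 184 CPM in IHCs and 46.2 and 1.91 CPM in cHCs. Tmc2, its early paralog, had 0 counts in both IHC libraries and was at 60.5 and 26.2 CPM in cHCs. Neither passed the test (adjusted p = 0.248 and 0.125), though the groups did not overlap in either gene. The channel partners Tmie, Lhfpl5 and Cib2 were at 106 and 63.7, 184 and 149 and 489 and 363 CPM in IHCs and 76.7 and 76.8, 211 and 512 and 309 and 304 CPM in cHCs, with adjusted p values of 0.97, 0.458 and 0.87. The shaft connector gene Ptprq, named after its values were seen, was at 1534 and 1366 CPM and 1362 and 1457 CPM, and the groups overlapped.

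Myo3b, a class III myosin of the stereocilia tips, had 0 counts in both IHC libraries and was at 96.6 and 203 CPM in cHCs, at least 1467-fold above the floor (adjusted p = 0.00602). Its paralog Myo3a, named after its values were seen, was at 442 and 285 CPM in IHCs and 358 and 260.2 CPM in cHCs, with overlapping groups. Espnl, the espin-like partner of class III myosins, was at 7.54 and 1.20 CPM in IHCs and 159.9 and 265 CPM in cHCs. It was 48.6-fold lower in IHCs (log2 fold change -5.60 ± 0.90 SE, adjusted p = 0.0159), and OHCs at P7 had 716 CPM against 0.0211 CPM at P22. The actin bundler Espn was at 106 and 97.7 CPM in IHCs and 22.1 and 88.3 CPM in cHCs. The crosslinkers Fscn2 and Pls1 were at 65.1 and 75.5 CPM and 119 and 194 CPM in IHCs and 7.70 and 16 CPM and 99.3 and 86.3 CPM in cHCs. None of these 3 passed the test.

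Transcription factors were called in both directions. The counts below stand beside 0.420% of all genes tested called higher in IHCs and 0.503% called lower. Of 33 hair cell transcription factors, 30 were tested, Tbx2 and Rorb were higher in IHCs, Atoh1 and Nhlh1 were lower, and the median log2 fold change was -0.79. DESeq2 called 4 of them higher and 8 lower, and limma-voom 3 and 9. Of the 444 transcription factor genes that the study listed on these libraries, all tested, 4 were higher in IHCs (Pknox2, Rorb, Tbx2 and Zfp827) and 5 were lower (Atoh1, Bach2, Mycl1, Nhlh1 and Pax2), with a median of 0.12, which was -0.03 without IHC P74, -0.01 without IHC P75 and 0.19 without cHC 13. DESeq2 called 10 of them higher and 23 lower, and limma-voom 5 and 12. Since that longer list came from the same libraries, its directions are no independent evidence.

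Tbx2, a T-box factor that sets IHC against OHC identity, was at 272 and 198 CPM in IHCs and 0.0425 and 0.279 CPM in cHCs. The cHC libraries were close to no count and the groups were far apart (log2 fold change 10.40 ± 1.56 SE, adjusted p = 0.0149), and OHCs had means of 9.12 CPM at P7 and 2.04 CPM at P22. Rorb, a nuclear receptor, was at 1277 and 1919 CPM in IHCs and 225 and 53.2 CPM in cHCs (log2 fold change 3.52 ± 0.65 SE, adjusted p = 0.0295). The mean of Rorb in SCs was 826 CPM, so that cHCs stood below both.

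Atoh1 had 0 counts in both IHC libraries and was at 364 and 1812 CPM in cHCs, with library 16 well above library 13. This checks the labels, since only cHC mice carried the transgene, and it cannot separate the transgene from the native gene at chr6:64679140-64681227 (mm9, plus strand). The mean was 1.09 CPM in SCs and 4.29 CPM in OHCs at P7. Pax2, an otic transcription factor, was at 0.0337 and 0.0687 CPM in IHCs and 46.2 and 113.8 CPM in cHCs, a ratio of 1735 (95% exact counting interval 593 to 8414) higher in cHCs. Gfi1, the zinc finger factor that hair cells need to survive, was at 312 and 268 CPM in IHCs and 7.91 and 57.3 CPM in cHCs. Both IHC libraries were above both cHC libraries without a call (adjusted p = 0.21). Barhl1 and Lhx3 were at 17.4 and 41.5 CPM and 27.8 and 1.34 CPM in IHCs and 80.8 and 177 CPM and 64.9 and 152 CPM in cHCs, again without a call (adjusted p = 0.359 and 0.362). The cell cycle inhibitor Cdkn1c, the sole one of 18 cell cycle regulators tested that edgeR called (DESeq2 and limma-voom each called 1 higher and 2 lower), was at 0.0337 and 0.309 CPM in IHCs and 196 and 275 CPM in cHCs (log2 fold change -10.39 ± 1.93 SE, adjusted p = 0.0295).

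The 12 largest falls by fitted fold change all had 0 counts in both IHC libraries, so that their fitted size is set by the level in cHCs and the model, and a fold above the floor is given as a lower bound instead. They included Tnc, Atoh1, Igll1, Nhlh1, Myo3b, Rasd2, Slc14a1, Olfml3, Cdhr1, Slc52a3 and Scn11a. Tnc, the extracellular matrix glycoprotein tenascin C, was at 1013 and 1617 CPM in cHCs, at least 12879-fold above the floor, the highest bound of all. Rasd2, a Ras-like GTPase, was at 219 and 385 CPM and Olfml3, a secreted olfactomedin-like protein, at 144 and 162 CPM. Both also had counts in OHCs at P7, with means of 312 CPM and 165 CPM. Slc14a1, a urea transporter, was at 121 and 231 CPM, Cdhr1, a cadherin of photoreceptors, at 68.2 and 192 CPM and Slc52a3, a riboflavin transporter, at 57.8 and 167 CPM. The means of these 3 in OHCs at P7 were 2.81, 0.197 and 0.503 CPM. The sodium channel gene Scn11a was at 34.4 and 159 CPM, with the lowest bound of the 12, at least 945-fold.

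The 12 largest rises included 5 genes described above, Crip3, A530016L24Rik, Lrrc52, Atp2a3 and Slc17a8. Slitrk3, a transmembrane protein that organises synapses, had the highest fitted value, with 0 counts in both cHC libraries and 34.4 and 102 CPM in IHCs, at least 671-fold above the floor. Gm4980, a predicted gene, was at 104 and 89 CPM in IHCs and Akap6, an anchoring protein for protein kinase A, at 34.8 and 69.3 CPM. Fign, the microtubule-severing enzyme fidgetin, was at 59.7 and 112 CPM in IHCs, and Atp6v1c2, a proton pump subunit, at 70.8 and 15.5 CPM. The cHC libraries held 1 and 0, 1 and 0, 2 and 0 and 1 and 0 counts of these 4 genes. The ratios ran from 2691 for Fign (95% exact counting interval 745 to 22228) to 6058 for Gm4980 (1087 to 239333). Gcnt4, a glycosyltransferase, was at 119 and 76.6 CPM in IHCs and 0.0851 and 0.0254 CPM in cHCs, and Dlc1, a GTPase-activating protein, at 173 and 118 CPM and 0.170 and 0.0254 CPM. Dlc1 had a mean of 0.538 CPM in OHCs at P7 and 0.50 CPM at P22, so that IHCs stood above all other cell types of the series on it.

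The called genes were placed among the 5 cell types by their highest mean. Of the 71 genes higher in IHCs, the highest mean was in IHCs for 40, in OHCs at P22 for 26, in OHCs at P7 for 5 and in SCs for 0. Of the 85 genes lower in IHCs, it was in cHCs for 57, in OHCs at P22 for 13, in OHCs at P7 for 9 and in SCs for 6. Over all genes tested, IHCs held the highest mean in 17.8% and cHCs in 17.9%, but a gene called higher in one group is by that choice more likely to peak there.

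Markers of cells that could have been picked along with the hair cells were summed in each library. The 35 genes of Deiters and pillar supporting cells gave 2735 and 2954 CPM in IHCs and 2993 and 1874 CPM in cHCs, beside 5348 and 6517 CPM in SCs. Of these, 33 were tested and 0 were called in either direction, with 7 at an unadjusted p under 0.05, while DESeq2 called 2 higher in IHCs and 4 lower and limma-voom 2 and 1. The median log2 fold change was -0.63. Without cHC 13 it was 0.59 and without IHC P74 -0.14, and by limma-voom it was -0.16. Fgfr3, whose regulatory region drove the Cre of the cHC mice, was at 17.3 and 0 CPM in IHCs and 458 and 431 CPM in cHCs, and did not pass the test (adjusted p = 0.244).

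The 15 markers of inner phalangeal and border cells, which surround IHCs, summed to 1789.5 and 1751 CPM in IHCs and to 2039 and 122 CPM in cHCs. Library cHC 13 was thus near both IHC libraries and cHC 16 was far below the other 3. The sums were higher still in SCs, at 5585 and 6414 CPM, so that the list is not specific to cells around IHCs. Gjb2, Gjb6, Fabp7 and Kcnj10 were on both supporting cell lists. The gap junction gene Gjb2 was at 611 and 468 CPM in IHCs and 83.4 and 1.73 CPM in cHCs, and the glutamate transporter Slc1a3 at 243 and 193 CPM and 77.9 and 0.330 CPM. These 2 do not stand for the whole list, in which 11 members had a positive and 4 a negative fold change. Both IHC libraries lay above both cHC libraries in 6 of the 15 and below in 0, beside 21.7% and 24.7% of all genes tested. 0 of the 15 were called, with 3 at an unadjusted p under 0.05, 3 called higher in IHCs by DESeq2 and 2 by limma-voom, and the list median was 1.75. The median was 4.77 without cHC 13, 0.96 without cHC 16, 0.45 without IHC P75 and 3.12 by limma-voom. It was 0.38 over the 10 members with at least 10 counts in every IHC and cHC library. Neuron markers summed to 632 and 861 CPM in IHCs and 219 and 525 CPM in cHCs, with Snap25, Nefm and Nefl as the highest members in IHCs. Nefl, the light neurofilament, was the sole neuron marker called by edgeR of 12 tested, at 115 and 358 CPM in IHCs and 0.511 and 0.0254 CPM in cHCs (log2 fold change 9.84 ± 1.71 SE, adjusted p = 0.0221), with a mean of 85.3 CPM in OHCs at P7. Tubb3 and Mapt were at 1.25 and 0.344 CPM and 23.4 and 1.79 CPM in IHCs and at 0 and 0.0508 CPM and 0.681 and 0.127 CPM in cHCs, and Prph had no count in any of the 4 libraries. DESeq2 and limma-voom each called 3 neuron markers higher in IHCs and 0 lower. The neuron list had a median log2 fold change of 4.80, which was 3.43 without IHC P74 and 6.31 without cHC 16. Over the 4 neuron genes with at least 10 counts in every IHC and cHC library the median was only 0.28. The larger value thus rests on genes with few counts. Both IHC libraries lay above both cHC libraries in 8 of the 12 neuron genes tested and below in 2, beside 21.7% and 24.7% of all genes tested. The part of these cells in the results was not tested.

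No gene of the remaining marker lists was called by edgeR, and 1 glial, 1 immune, 0 fibroblast and 2 red blood cell markers had an unadjusted p under 0.05. DESeq2 called 1 fibroblast marker lower in IHCs, and limma-voom called 2 red blood cell markers higher. Schwann cell and glia markers summed to 124 and 264 CPM in IHCs and 123 and 169 CPM in cHCs, and immune markers to 0 and 9.86 CPM and 3.87 and 4.47 CPM. Fibroblast markers summed to 42.2 and 136 CPM in IHCs and 199 and 26.6 CPM in cHCs. Red blood cell markers were seen mainly in IHCs, with sums of 43.9 and 28.1 CPM against 0.596 and 2.18 CPM, from the near-identical globin genes Hba-a1 and Hba-a2 among others. The part of these cells in the results was likewise not tested.

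**Figure D4:**
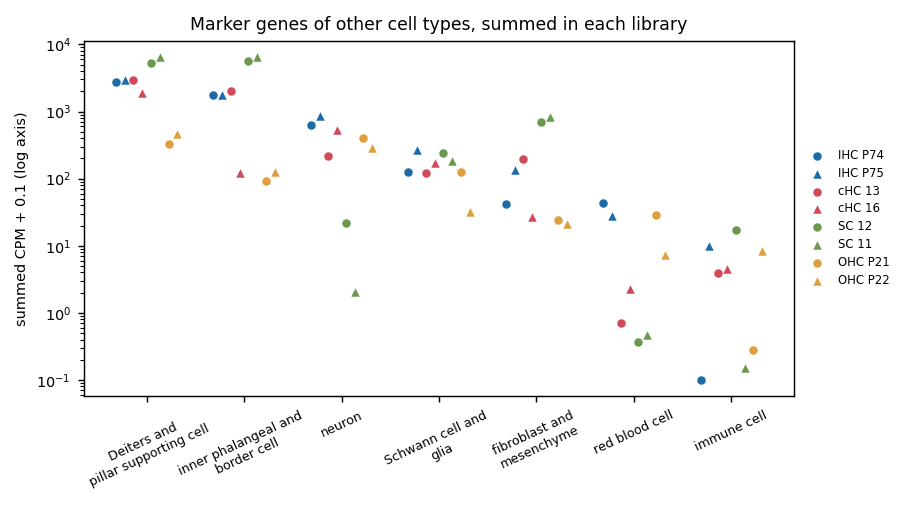
Summed CPM plus 0.1 (log axis) of 7 lists of marker genes of other cell types (x axis) in the IHC, cHC, SC and OHC P22 libraries, 1 point per library. Library cHC 16 lies far below the other cHC library and both IHC libraries on inner phalangeal and border cell markers, and SCs are highest on both supporting cell lists.

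No gene of the general cell functions examined was called by edgeR. Of the 78 cytosolic ribosomal protein genes, 72 had a negative fold change and 53 were lower in both IHC libraries than in both cHC libraries, with a median log2 fold change of -0.76 and 16 at an unadjusted p under 0.05. DESeq2 called 4 of them lower in IHCs and limma-voom 2. Of 13 mitochondrially encoded genes 0 were called and 10 were lower in both IHC libraries, with a median of -0.68, which was -0.16 without cHC 16, and 0 at an unadjusted p under 0.05. Beside both lists, 24.7% of all genes tested were lower in both IHC libraries than in both cHC libraries. The 91 nuclear genes taken for oxidative phosphorylation by the start of their symbol included some that are not subunits, such as Ndufaf1 and Atp5l-ps1. These 91 had a median of 0.16, which was -0.01 without IHC P75 and 0.31 without cHC 16, with 0 called and 3 at an unadjusted p under 0.05. The 23 immediate early and stress genes tested had a median of 0.30 with 0 called and 3 at an unadjusted p under 0.05. Their median was -1.10 without IHC P75, 0.95 without IHC P74, 0.64 without cHC 13 and -0.10 by limma-voom. DESeq2 called 2 of the immediate early and stress genes lower in IHCs, and limma-voom called 1 higher. For the mitochondrially encoded genes both tools called 0, and for oxidative phosphorylation DESeq2 called 0 and limma-voom 1, higher in IHCs. Egr1, an early gene, varied more within IHCs, at 166 and 1134 CPM, than between the groups, with 500.0 and 579 CPM in cHCs.

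Tubulin and microtubule genes (20 tested) had 0 calls and a median of 0.28, which was -0.20 without IHC P75 and 0.03 without IHC P74, and sodium pump and sodium channel genes (12 tested) 0 calls and a median of 1.01, which was 2.33 without cHC 16, 1.52 without cHC 13 and 1.73 by limma-voom. At an unadjusted p under 0.05 there were 5 and 1 of them. DESeq2 called 1 tubulin or microtubule gene higher and 3 lower in IHCs and 1 sodium gene lower, and limma-voom called 0 and 1, the latter lower. Among 19 neurotrophin, growth factor and guidance genes tested, the axon guidance receptor Robo2 was the sole call by edgeR, lower in IHCs, while DESeq2 called 2 higher and 3 lower and limma-voom 2 and 2. Robo2 was at 1.08 and 0.206 CPM in IHCs and 234 and 247 CPM in cHCs (log2 fold change -8.54 ± 1.35 SE, adjusted p = 0.0149). Ntf3 and Bdnf, the neurotrophins of the auditory nerve, were at 10.2 and 20.6 CPM and 65.3 and 31 CPM in IHCs and 0 and 0.203 CPM and 17.7 and 26.5 CPM in cHCs, without a call (adjusted p = 0.393 and 0.809).

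**Figure D5:**
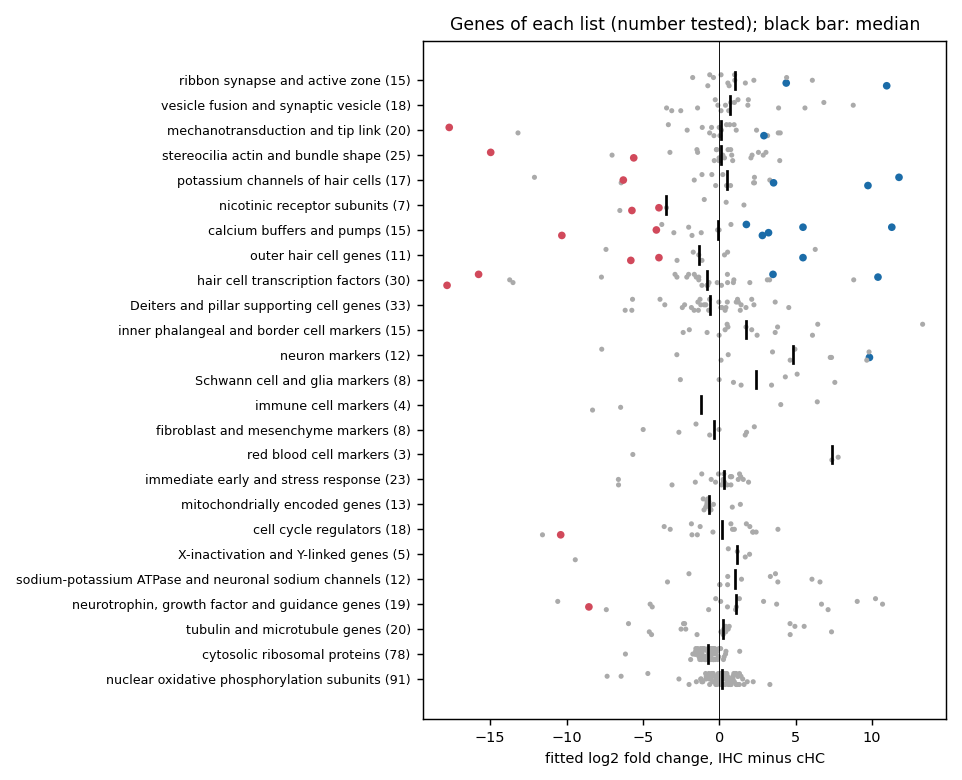
Fitted log2 fold change, IHC minus cHC (x axis), of each tested gene of 25 gene lists (rows, number tested in parentheses), with called genes in blue where higher in IHCs and red where lower, other genes in grey and the list median as a black bar. Ribosomal protein genes form a narrow cloud at a median of -0.76, and calcium buffers and pumps hold called genes on both sides.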

How the data were processed

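Total RNA from hand-picked, pooled cells was amplified by single primer isothermal amplification. Per the submitters' processing notes and the study's methods, reads were aligned to mm9 with STAR and BWA and counted with HTSeq. The authors deposited raw counts per gene for each library, with no normalization, and reads on no feature were left out here. Whether counting used strand is not given in the sources used here, so overlapping and antisense genes are uncertain. Columns of the authors' comparisons were not used. Each count file's library was taken from its file name, and it matched that library in the study's table by a constant ratio.

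Genes were filtered by cell type and tested with edgeR 4.0.16 (quasi-likelihood, TMM, 1 model over all 10 libraries, 5 residual degrees of freedom, two-sided). DESeq2 1.42.0 and limma 3.58.1 were alternatives, as were other scalings, filters and left-out libraries. The script was tested on counts simulated from the dispersions of the same fit, with changes placed only in genes at 5 CPM or more. It called 0 of 49 genes changed by 2 on the log2 scale, 4 of which had an estimate of the wrong sign, and 17 of 50 changed by 4. Of those changed by 6 and by 8 it called 34 of 50 and 44 of 50. Of the 98 calls in all, 3 were of unchanged genes. Intervals and floors (3 counts) cover counting error only. The members and the 26 gene lists were chosen with earlier results of these data known. Named genes were the 12 largest rises and falls, the 10 smallest p values, called list members, genes called in every fit, genes used to pick or mark cells with their paralogs, and at most 5 defining members from the start of each list. The results of some genes that this rule names are not reported here.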

Additional observations from a re-analysis of the deposited data

How the results depend on the processing

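Of the 156 genes called, 156 were called by DESeq2, 144 by limma-voom, 150 with RLE factors, 154 with upper-quartile factors and 115 when only the 4 libraries were fitted. The number called was 1357 by DESeq2 (496 higher and 861 lower in IHCs), 738 by limma-voom (284 and 454), 671 with no filter on low counts (288 and 383), 73 with at least 10 counts in every IHC and cHC library (43 and 30) and 361 by the fit of edgeR version 4, an alternative chosen after seeing the data (156 and 205). Leaving out 1 library gave 16 to 84 calls in all, 10 to 40 higher and 6 to 44 lower in IHCs. With the files assigned to the records they were attached to, which mixes cell types, 0 genes were called in either direction (1026 at an unadjusted p under 0.05), and the log2 fold change was -0.34 for AI593442, -3.47 for Ocm, -0.38 for Pknox2 and 1.80 for Rph3a, the reverse of the values reported. The correlations for the IHC pair, the cHC pair and the mean of the cross pairs were 0.772, 0.765 and 0.646 over genes with at least 10 counts, and 0.850, 0.845 and 0.752 as Pearson correlations of log2(CPM + 1). Across 362 list medians recomputed under the alternatives, 97 moved by more than 1 SD between library pairs. The cause of these changes was not tested. No paired analysis was possible because the IHC and cHC libraries share no replicate number. With 2 libraries a side the smallest fold change called was 1.78 on the log2 scale, which is no limit of detection, since 6434 genes with a larger fitted fold change in either direction were not called.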
